A study of Drosophila melanogaster with 6 samples.

Results

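Drosomycin (Drs) and its drosomycin-like paralogs (Drsl) are 7 genes on the array by their platform gene symbols: Drs, Drsl1, Drsl2, Drsl3, Drsl4, Drsl5 and Drsl6, of 11982 genes with a probe set of their own. Each had 1 probe set, and none of these probe sets was annotated with a second gene. They were followed in whole adult Drosophila melanogaster of 3 genotypes, each 12 hours after an injection. The mutants were gyc76c[KG03723], which affects Gyc76C, a receptor that makes cyclic GMP, and spz[rm7], in the gene for Spätzle, the ligand of the Toll receptor. The control was gyc76c[revert], which the sample titles call control. The titles do not say whether it shares a genetic background with spz[rm7]. Each genotype was injected with Staphylococcus saprophyticus or with phosphate-buffered saline (PBS), and flies were kept at 25 °C on cornmeal medium. The genotypes are called KG03723, rm7 and revert below. There was 1 Affymetrix array for each of the 6 combinations, each allele came as 1 line, and the labels give neither the sex nor the number of flies on an array. A genotype difference and a difference between the lines' genetic backgrounds cannot be told apart.

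Drosomycin is a small secreted peptide rich in cysteine that acts against fungi. In adult flies the fat body, the counterpart of the liver, releases it into the blood when Toll is active, and Drs transcript is a standard readout of that pathway. Toll is triggered when Spätzle is cleaved by a protease cascade that senses fungal cell wall and the lysine-type peptidoglycan of many Gram-positive bacteria. Signal then passes through Myd88, Tube and Pelle to the NF-κB factors Dif and Dorsal. The Drsl genes encode peptides of the same fold and are less studied. Drsl3 has been described as a gut gene that responds to JAK-STAT signalling.

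Values are MAS5 signals on a linear scale, with each array scaled to the same 2% trimmed mean of 500. Before the log2 was taken, anything dimmer than 42.7 was raised to 42.7, called the floor below, which is where the lowest 40% of the values end. The brightest probe set of an array read 30455 to 41453, and 58.9% to 61.0% of probe sets were above the floor. All 3 probe sets of Gyc76C also carry a second gene's name, and the brightest read 1234 and 1085 in KG03723 after bacteria and PBS, against 2004 and 2092 in revert. The same probe set read 1583 and 1523 in rm7, also below both revert arrays. The spz transcript read 813 and 951 in rm7, against 1122 and 1059 in revert, and the labels do not say that the lesion lowers it. Fat body markers were present in every group, with a summed signal over 12 genes of 62396 to 74049 in KG03723, 61594 to 66065 in rm7 and 51736 to 63132 in revert. The labelled whole body was matched by markers of gut, testis, accessory gland, eggshell and blood cells, none of whose genes was under the floor on all 6 arrays. In RNA of whole flies, fewer cells of a type and less RNA per cell cannot be told apart.

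The plot of signals by array shows 4 kinds of profile in the family. Drs was far above the floor on all 6 arrays and lower in rm7. Drsl2 and Drsl3 were at moderate signal in revert and close to or under the floor in rm7, Drsl4 was several-fold brighter in rm7 than elsewhere, and Drsl5 was nearly level. Drsl1 was above the floor on 3 arrays and Drsl6 on none.

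**Figure D1:**
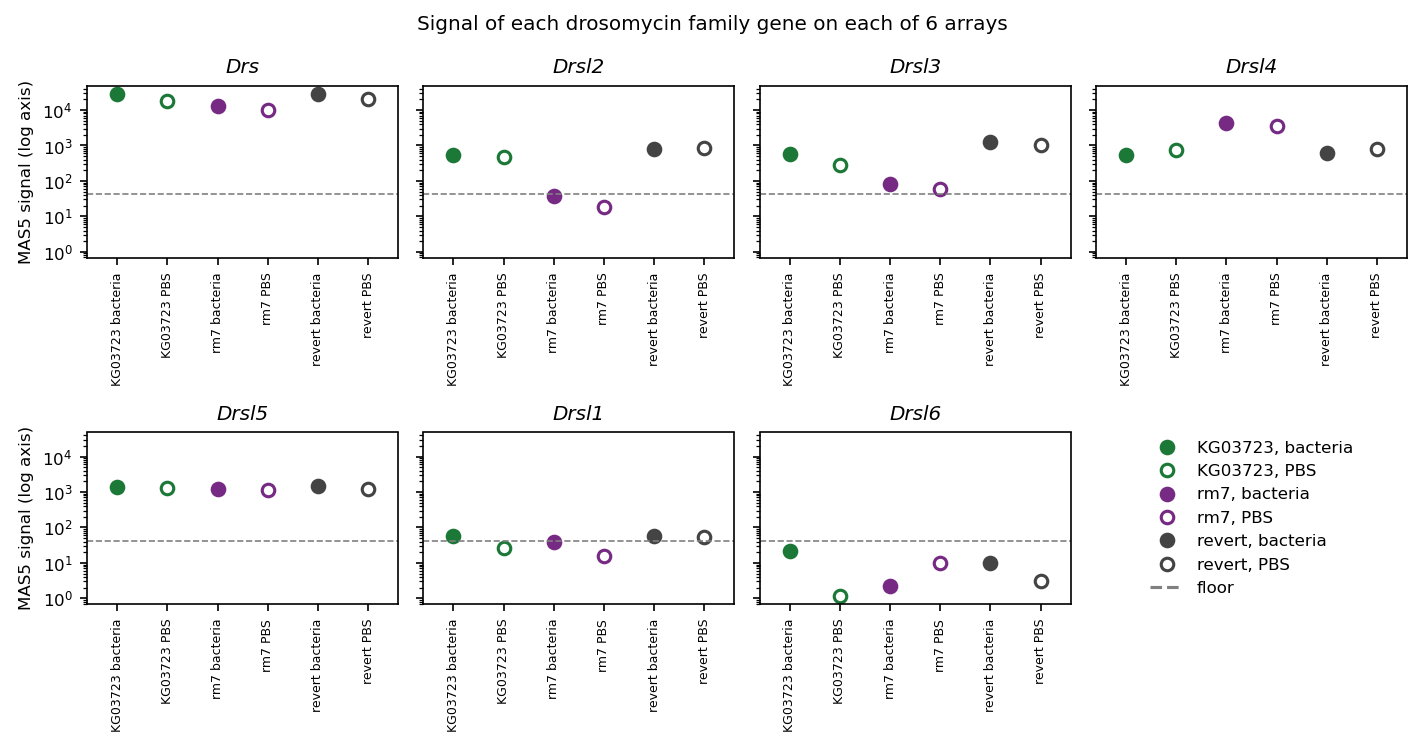
MAS5 signal (log axis) of the 7 drosomycin family genes on the 6 arrays, with 1 point per array, filled for bacteria and open for PBS, and the floor of 42.7 as a dashed line. Drsl2 drops under the floor on both rm7 arrays while Drsl4 reaches 4328 and 3581 there, and Drsl5 stays between 1136 and 1430 throughout.

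The comparison of rm7 with revert asks how the family reads when the Toll ligand gene is mutated. Differences were tested in an additive limma model with terms for genotype and injection, on 6 arrays and 9540 genes, with Benjamini-Hochberg adjustment over all of them at 0.05. With 1 array per combination, the error of this fit is the departure from additivity. A gene entered the fit if 3 or more arrays read it above the floor, which held for 6 of the 7 members. Of these, 3 fell in rm7 (Drs, Drsl2 and Drsl3), against 3% of all genes tested, and 1 rose (Drsl4), against 2.61% of all genes. The median log2 difference was -0.72 over the 6 members and 0.03 over all genes. Drsl1 and Drsl5 did not pass, and Drsl6 was not in the fit.

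Drs, the antifungal peptide itself, read 12983 and 9916 in rm7 after bacteria and PBS, against 27602 and 20396 in revert. The brighter rm7 array was thus below the dimmer revert array, so the groups did not overlap. Drs fell by 1.06 ± 0.11 on the log2 scale (SE of the limma fit, adjusted p = 0.00358), which is 2.09-fold. Within single injections it was 2.13-fold lower after bacteria and 2.06-fold lower after PBS. Above the floor on at least 1 array were 6 members and 10105 of 11982 genes. Shares given with ratios of single arrays are over these genes. Counted this way, 3 members (Drs, Drsl2 and Drsl3) were at least 2-fold lower after bacteria, against 2.87% of genes. The same 3 were lower after PBS, against 4.16%. Drsl4 was the 1 member at least 2-fold higher, where 5.42% of genes were after bacteria and 2.51% after PBS. The Drs call was lost without the rm7 bacteria array, where the log2 difference was -0.98. It was also lost in limma fits without the treatment term (adjusted p = 0.058) and with no filter on low genes (adjusted p = 0.135). Over all 18 alternatives the adjusted p ranged from 1.98e-05 to 0.135.

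Besides the fat body, Drs is known to be transcribed in the female sperm stores, and Send1 and Send2 mark that tissue. Send1 read 1400 and 999 in rm7 against 2530 and 1719 in revert, and Send2 read 91.6 and 95.3 in rm7 against 75.4 and 72.1 in revert. Neither passed the test in this comparison. Of the 12 fat body genes 1 fell (fon) and 1 rose (Lsd-1) in rm7, with a median log2 difference of 0.31. The part of either tissue in the Drs difference was not tested.

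Drsl2, a drosomycin-like peptide gene, read 38.2 and 17.9 in rm7, both under the floor, against 797 and 877 in revert. It was at least 18.6-fold lower after bacteria and at least 20.5-fold lower after PBS. In the limma fit Drsl2 fell by 4.29 ± 0.22 on the log2 scale (adjusted p = 0.000361), a size set by the floor on the rm7 side. Across the alternatives the fitted difference ran between -5.00 without a floor and -1.79 with the floor at the 60th percentile. The Drsl2 call was lost with no filter on low genes (limma adjusted p = 0.0509).

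Drsl3 read 82.1 and 61.2 in rm7, against 1254 and 1030 in revert. All 4 arrays were above the floor. Drsl3 was 15.3-fold lower after bacteria and 16.8-fold lower after PBS, and fell by 4.002 ± 0.25 on the log2 scale (limma adjusted p = 0.000501). Across the alternatives the fitted difference ran between -4.22 and -2.24, the smaller size with the floor at the 60th percentile, which lies above both rm7 signals. The Drsl3 call was lost with no filter on low genes (limma adjusted p = 0.083). As Drsl3 is known from the gut, the 19 genes of the gut marker list were set beside it. Of these, 4 fell and 1 rose in rm7, with a median log2 difference of -0.42 and a summed signal of 161532 and 140021 in rm7 against 206091 and 182897 in revert. Of 7 JAK-STAT genes with a probe set 4 were in the fit, and 1 of these fell in rm7, the Turandot stress peptide gene TotC, at 6095 and 5294 in rm7 against 26711 and 25098 in revert. The part of gut content or of JAK-STAT signalling in the Drsl3 difference was not tested.

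Drsl4 went the other way. It read 4328 and 3581 in rm7, against 625 and 784 in revert, and the dimmer rm7 array was far above the brighter revert array. Drsl4 was 6.92-fold higher after bacteria and 4.57-fold higher after PBS, and rose by 2.49 ± 0.19 on the log2 scale (limma adjusted p = 0.000972). The Drsl4 call was lost with no filter on low genes (limma adjusted p = 0.120). Among the markers of reproductive tissue, 2 of 10 eggshell genes fell and 2 rose in rm7, with a median log2 difference of -1.20 and a summed signal of 86147 and 107850 in rm7 against 112129 and 108486 in revert. For 13 testis genes the median was 0.17, and for 14 accessory gland genes, of which 1 fell, it was -0.33. Their part in the differences of the family was not tested.

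Drsl5 was the level member, with 1245 and 1136 in rm7 against 1430 and 1225 in revert. The groups overlapped, and the log2 difference of -0.15 had a 95% interval from -0.43 to 0.12 (limma adjusted p = 0.617). Drsl1 read 39.8 and 15.4 in rm7, both under the floor, against 58.0 and 53.0 in revert, and these signals are too close to the floor to size a difference (log2 -0.38, interval -0.99 to 0.24). Drsl6 read at most 21.1 on any array and no difference was measurable.

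Without regard to the test, both rm7 arrays lay below both revert arrays for Drs, Drsl1, Drsl2 and Drsl3, a pattern found for 19.7% of all tested genes. Both lay above for Drsl4, as for 26.8% of all tested genes. Non-overlap of arrays this few is thus common. The test acts instead on the size of each difference relative to the residual SD of the additive fit.

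Drsl2, Drsl3 and Drsl4, which changed in rm7, are neighbours on the chromosome, while Drs is not next to them. In the RefSeq gene table, Drsl2, Drsl3, Drsl4 and Drsl5 follow each other on arm 3L with no other protein-coding gene between them, between ZnT63C and PIG-C. Drsl1 and Drsl6 form a second pair further along, and Drs stands alone between kst and Ythdc1. Among the 4 consecutive genes the rm7 difference was thus -4.29, -4.00, 2.49 and -0.15 on the log2 scale. Of the 10 other protein-coding genes within and next to the stretch, 7 were in the fit and 0 passed in rm7, with log2 differences between -0.29 and 0.32. ZnT63C, a zinc transporter gene and the neighbour of Drsl2, stood at 0.32 (limma adjusted p = 0.312), and PIG-C, next to Drsl5, at -0.29 (limma adjusted p = 0.662). At an unadjusted p under 0.05 in the limma fit there were 0 of the 7. Whether sequence differences between the lines affect the probes of these paralogs was not tested.

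**Figure D2:**
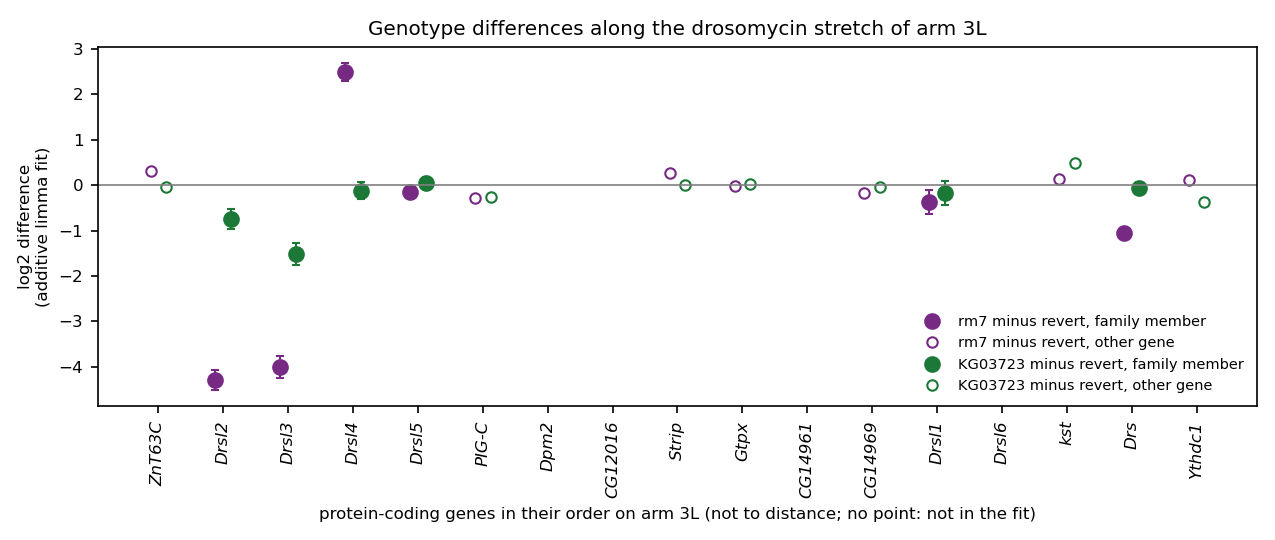
Log2 difference from revert in the additive limma fit for the protein-coding genes of the drosomycin stretch, in their order on arm 3L but not to distance, for rm7 and KG03723. Filled points are family members with the SE as bars, open points are other genes. In rm7 the 4 adjacent genes Drsl2, Drsl3, Drsl4 and Drsl5 stand at -4.29, -4.00, 2.49 and -0.15, while the other genes stay between -0.29 and 0.32.

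Drosomycin was set beside other peptides known to respond to Toll. Of 19 listed Toll-responsive peptide genes 10 were measured, and 9 of them fell in rm7, with a median log2 difference of -1.68. BomBc3, of the Bomanin peptide family, had the lowest value at -3.86 ± 0.23 (limma adjusted p = 0.000438), followed by BomBc2 at -2.83, BomT3 at -2.55 and BomS2 at -2.38. Mtk, which encodes the antifungal peptide metchnikowin, did not pass (log2 -0.20, limma adjusted p = 0.525). It read 29644 and 18424 in rm7 and 30062 and 24081 in revert. The Drs difference of -1.06 lay between those of IM33 (-0.72) and BomS5 (-1.41). Drs and Mtk in revert after bacteria, at 27602 and 30062, were near the top of that array, whose highest signal was 37347. A loss of range at such signals was not tested.

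**Figure D3:**
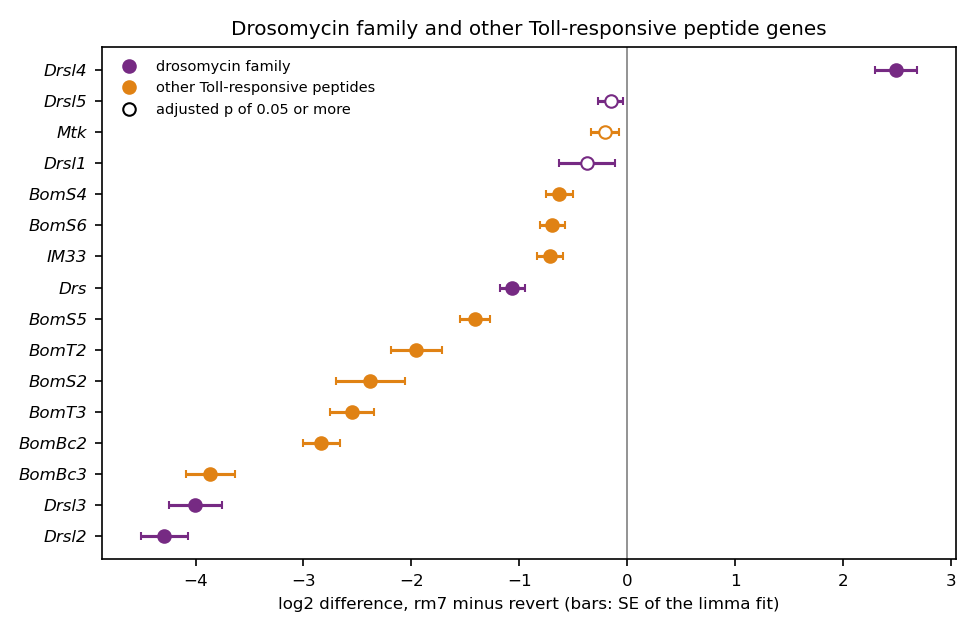
Log2 difference of rm7 minus revert for the 6 drosomycin family genes and for 10 Toll-responsive peptide genes outside the family, all in the fit and ordered by size. Bars are the SE of the limma fit, and points are open where the adjusted p was 0.05 or more. Drsl3 and Drsl2 lie below BomBc3 at -3.86, Drs lies in the middle of the Toll-responsive peptides, and Drsl4 is the member above 0.

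Upstream in the pathway, 2 of 10 measured genes of the extracellular cascade fell in rm7 and 0 rose. These were SPE, the protease that activates Spätzle (log2 -2.13, limma adjusted p = 0.00852), and nec, a serpin that restrains the cascade (log2 -1.66, limma adjusted p = 0.0276). Of 14 intracellular Toll genes 0 fell and 1 rose, the gene of the ubiquitin ligase Pellino (Pli, log2 1.02, limma adjusted p = 0.0203). The list's median was 0.01. Of 5 measured IMD-responsive peptide genes 1 fell (edin, log2 -1.36), with a list median of -0.46.

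KG03723 and revert were compared to ask whether the family depends on the guanylate cyclase gene. This comparison uses the same revert arrays as the rm7 one. Of the 6 members 1 fell, against 0.692% of all genes, and 0 rose, against 0.681% of all genes. The median over the 6 was -0.15, with -0.00 over all genes.

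The member that fell was Drsl3, at 565 and 279 in KG03723 after bacteria and PBS, against 1254 and 1030 in revert. It was 2.22-fold lower after bacteria, where 1.24% of genes were at least 2-fold lower and 2.17% higher, and 3.69-fold lower after PBS, where 1.33% were lower and 1.72% higher. No other member passed 2-fold in these ratios. Drsl3 fell by 1.52 ± 0.25 on the log2 scale (limma adjusted p = 0.0410). This call stood close to the threshold. It was lost in 9 of 18 alternatives, among them the fits without the KG03723 bacteria array (adjusted p = 0.0797), the KG03723 PBS array (0.406), the rm7 bacteria array (0.0805) and the rm7 PBS array (0.0867). The fitted difference lay between -1.85 and -1.19 over the 18. Of the 19 gut genes 6 fell and 1 rose in KG03723, with a median log2 difference of -0.37 and a summed signal of 142116 and 143764 in KG03723 against 206091 and 182897 in revert. TotC read 19388 and 17361 in KG03723 against 26711 and 25098 in revert and did not pass (limma adjusted p = 0.0896). Of the 4 JAK-STAT genes in the fit 0 passed, all 4 lay below 0 and the median was -0.38. The lowest was vir-1 (log2 -0.99, limma adjusted p = 0.0565), at 867 and 801 in KG03723 against 1517 and 1804 in revert. Their part in the Drsl3 difference was not tested.

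Drsl2 read 536 and 464 in KG03723, against 797 and 877 in revert. Drsl2 and Drsl3 were the 2 members with both KG03723 arrays below both revert arrays, as for 20.7% of all genes, and 0 had both above, as for 17.1% of all genes. For Drsl2 the log2 difference of -0.74 ± 0.22 did not pass (limma adjusted p = 0.274). For both genes the KG03723 signals stood between those of rm7 and revert.

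Drs was close to the control, at 28717 and 18196 in KG03723 against 27602 and 20396 in revert. Its log2 difference of -0.05 had a 95% interval from -0.32 to 0.22 (limma adjusted p = 0.980), which leaves out a change of the size seen in rm7. Drsl4 read 542 and 764 in KG03723 against 625 and 784 in revert (log2 -0.12, interval -0.58 to 0.34). Drsl5 read 1408 and 1339 in KG03723 against 1430 and 1225 in revert (log2 0.05, interval -0.23 to 0.33). Drsl1 read 56.8 and 27.1 in KG03723 against 58.0 and 53.0 in revert and did not pass.

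Of the 10 Toll-responsive peptides outside the family 0 fell and 1 rose in KG03723 (BomS4, log2 0.96, limma adjusted p = 0.0196), with a median of 0.02. Of the 5 measured IMD-responsive peptide genes 1 fell (Def, log2 -1.44, limma adjusted p = 0.0126) and 0 rose, with a median of -0.80. Send1 stood higher here, at 3259 and 3804 in KG03723 against 2530 and 1719 in revert, but did not pass (limma adjusted p = 0.187). Of the 7 neighbouring genes on arm 3L 0 passed, with log2 differences between -0.37 and 0.48.

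Set directly against KG03723, rm7 gave the same 4 members in the fit. This comparison uses the same rm7 arrays as the one with revert, so the results are not independent. Drs fell by 1.01 ± 0.11, Drsl2 fell by 3.55 ± 0.22 and Drsl3 fell by 2.48 ± 0.25 on the log2 scale, 3 of 6 against 3.43% of all genes. Drsl4 rose by 2.61 ± 0.19, 1 of 6 against 2.68% of all genes. The limma adjusted p was 0.00392 for Drs, 0.000396 for Drsl2, 0.00234 for Drsl3 and 0.000742 for Drsl4. Both rm7 arrays lay below both KG03723 arrays for Drs, Drsl2, Drsl3 and Drsl5, as for 21% of all genes, and above for Drsl4, as for 27.5% of all genes. The Drs call was lost without the rm7 bacteria array, where the log2 difference was -0.93. It was also lost with no treatment term (limma adjusted p = 0.0656). The Drsl3 call was lost with the floor at the 60th percentile (limma adjusted p = 0.180). All 4 calls were lost with no filter on low genes. The limma adjusted p was then 0.130 for Drs, 0.0622 for Drsl2, 0.114 for Drsl3 and 0.103 for Drsl4. Send1 fell in this comparison (log2 -1.57, limma adjusted p = 0.00575), and its part in the Drs difference was not tested.

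The response to the bacterium was read within each genotype from 1 array against 1, with no test. The series has no uninjected flies, so each ratio is over an injection of PBS. Drs was brighter after bacteria in each genotype. It read 28717 after bacteria and 18196 after PBS in KG03723, a 1.58-fold ratio. In rm7 it read 12983 after bacteria and 9916 after PBS, 1.31-fold, and in revert 27602 and 20396, 1.35-fold. None of these reached 2-fold, and a loss of range at such high signals was not tested. The rm7 bacteria array, at 12983, was still below the PBS arrays of KG03723 and revert.

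Drsl3 in KG03723 was the 1 member at least 2-fold higher after bacteria, where 0.475% of genes were, and 0 members were at least 2-fold lower there, against 0.861% of genes. In rm7 0 members passed 2-fold, where 0.623% of genes were higher and 0.327% lower, and in revert 0 did, where 0.584% were higher and 3.42% lower. The Drsl3 ratio of 2.03 in KG03723 compares 565 with 279, and it was 1.34-fold in rm7 and 1.22-fold in revert. With 50 added to each signal in place of the floor, the KG03723 ratio fell short of 2-fold (log2 0.90). Drsl2 read 536 after bacteria and 464 after PBS in KG03723 and 797 and 877 in revert, with no ratio in rm7. Drsl5 stayed between 1.05-fold and 1.17-fold higher in the 3 genotypes.

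Drsl4 differed in direction, with 542 after bacteria against 764 after PBS in KG03723 and 625 against 784 in revert, but 4328 against 3581 in rm7. None of these ratios reached 2-fold. The summed signal of the 13 testis markers moved in the same directions in rm7 and revert, with 20646 after bacteria against 13638 after PBS in rm7 and 11267 against 21327 in revert, and was 18620 against 18412 in KG03723. Its part in the Drsl4 values was not tested.

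**Figure D4:**
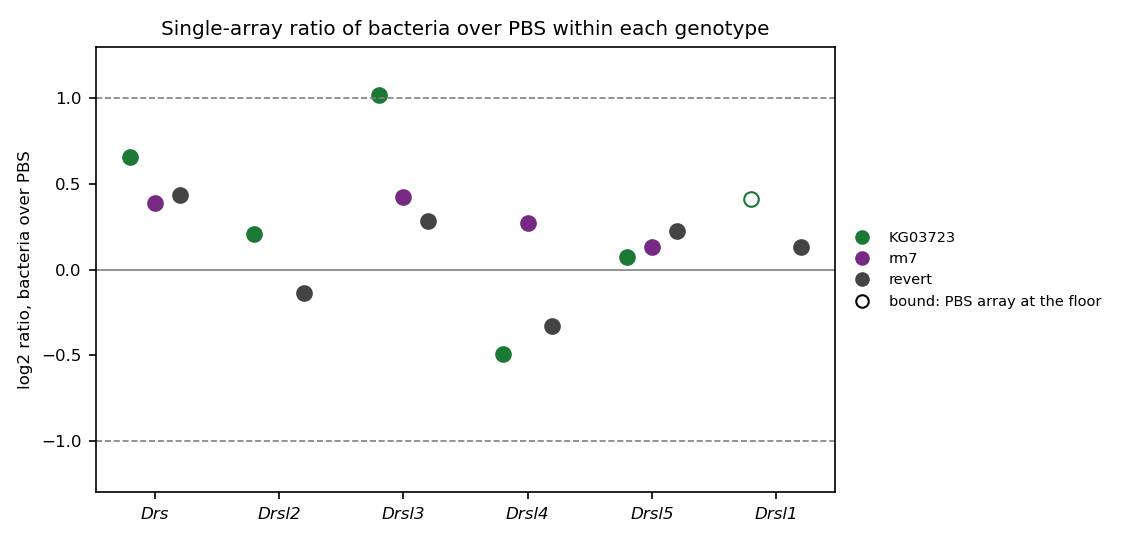
Log2 ratio of the bacteria array over the PBS array within KG03723, rm7 and revert for 6 drosomycin family genes, 1 pair of arrays per point, with dashed lines at 2-fold. The open point is a bound, and rm7 has no point for Drsl2 and Drsl1, where both arrays were at the floor. Drs lies between 0.39 and 0.66, and Drsl3 in KG03723 is the point past 2-fold.

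In the limma fit the shared effect of the bacterium passed for 0 of the 6 members, and for 0% of all genes in either direction. At an unadjusted p under 0.05 there were 2 members, Drs and Drsl3, and 347 of all 9540 genes, where 477 are expected by chance. The log2 effect was 0.49 ± 0.09 for Drs (limma adjusted p = 0.683) and 0.58 ± 0.20 for Drsl3 (limma adjusted p = 0.9998). The other 4 members lay between -0.18 and 0.18. Among the 10 Toll-responsive peptides outside the family 0 passed, all lay above 0 and the median was 0.81, against -0.01 over all genes.

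Whether the response in rm7 differed from that in revert and KG03723 was tested with 1 further term, which leaves 1 residual degree of freedom. It passed for 0 of 6 members and 0% of all genes in either direction, while 1 member and 1139 of 9540 genes had an unadjusted p under 0.05. For Drs the difference between responses was -0.16 with a 95% interval from -0.63 to 0.31 on the log2 scale (limma adjusted p = 0.654). A loss of the whole Drs response in rm7 lies within the reach of that interval, as does a response equal to that of the other genotypes.

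The order of the 6 conditions was read against the SD of a difference between 2 arrays, taken from the residual of the additive fit. For Drs the order from high to low was KG03723 bacteria, revert bacteria, revert PBS, KG03723 PBS, rm7 bacteria and rm7 PBS, with that SD at 0.16. The step between the bacteria arrays of KG03723 and revert, 0.06, was smaller than it, the step between their PBS arrays was 0.16, and the other 3 were at least 0.39. For Drsl3 the order was revert bacteria, revert PBS, KG03723 bacteria, KG03723 PBS, rm7 bacteria and rm7 PBS, and only the step between the revert arrays, 0.28, was under the SD of 0.35. For Drsl2 the KG03723 arrays followed both revert arrays by 0.57, above the SD of 0.31, and the rm7 arrays followed by at least 3.44. For Drsl4 the gap of 2.19 between rm7 PBS and revert PBS was the widest step, against an SD of 0.27. No neighbouring step of Drsl5 exceeded its SD of 0.17.

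The genes most like each member were taken as the 3 with the highest Pearson correlation of log2 signals over the 6 arrays, among the 9540 genes. These 6 points come in pairs of 1 genotype, so genes that differ in rm7 alone score high, and the values describe these arrays only. For Drs they were CG3939 (r = 0.992), Bbd (0.988) and mthl2 (0.987). Bbd, or bombardier, is a secreted protein gene needed for the short Bomanin peptides, and it read 30282 and 15092 in KG03723, 10500 and 7730 in rm7, and 33105 and 17485 in revert. For Drsl2 they were the cytochrome P450 genes Cyp6a13 (0.999) and Cyp6a17 (0.997) and CG32267 (0.996). Cyp6a17 was under the floor in rm7 like Drsl2, at 9.96 and 15.7, against 697 and 739 in revert. For Drsl3 they were Catsup (0.992), zfh1 (0.989) and CG10445 (0.984), whose spread over the arrays was far narrower than that of Drsl3. For Drsl4 they were the cytochrome P450 gene Cyp9h1 (0.998), CG4733 (0.997) and Snx27 (0.996), and Cyp9h1 read 369 and 326 in rm7 against 157 and 175 in revert. For Drsl5 they were CG30273 (0.998), CG8399 (0.995) and CG9631 (0.981). For Drsl1, on 3 arrays above the floor, they were CG32302 (0.993), CG6664 (0.987) and CG2321 (0.987).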

How the data were processed

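Total RNA of whole flies was labelled as biotinylated cRNA and hybridised to 6 one-colour Affymetrix arrays, per the labels' protocols. The authors deposited 1 linear signal intensity per probe set, and the submitters' processing notes name MAS5; its version and settings are not given in the sources used here. Of 18952 probe sets, 13647 carry 1 gene in the platform annotation, 402 several and 4720 none; the brightest single-gene probe set stood for each of 11982 genes. No further normalization was applied. Genes that 3 or more arrays read above the floor were fitted with limma 3.58.1 in R 4.3.3 (lmFit, eBayes with trend; 2 residual degrees of freedom, 1 with the interaction), after testing on simulated data. Ratios of single arrays carry no test. Named genes are all members, the 3 most correlated genes of each, called genes of the pathway lists (at most 4 a list), Mtk and the BomS genes, the label checks, and genes of the marker lists. The members and lists were chosen with earlier results of these data known. With 1 array per combination, the number of arrays limits the precision. Gene order comes from the RefSeq table of Release 6, without coordinates.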

Additional observations from a re-analysis of the deposited data

Results flagged for a closer look

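The response of Drsl4 to the bacterium in rm7 differed in direction from that in the other genotypes, with log2 ratios of 0.27 in rm7, against -0.49 in KG03723 and -0.33 in revert. The rm7 response minus the mean of the other responses was 0.68 on the log2 scale, with an unadjusted p of 0.00871 in the limma fit with 1 residual degree of freedom. It did not pass after adjustment over all genes (adjusted p = 0.413, and 0.353 to 0.477 over 9 alternatives). Markers of reproductive tissue moved in the same contrast: 13 of 13 testis genes lay above 0 with a median of 1.03, and 14 of 14 accessory gland genes lay above 0 with a median of 0.85. Of 10 eggshell genes 8 lay below 0, with a median of -1.38, against a median of -0.01 over all genes. None of these marker genes passed after adjustment, and their part in the Drsl4 response was not tested.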

How the results depend on the processing

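No paired analysis was possible because each combination has 1 array and the labels carry no replicate numbers. Of 18 alternatives each, the rm7 against revert count of 4 members was 4 in 14, 3 in 3 and 0 in 1, and the rm7 against KG03723 count of 4 was 4 in 13, 3 in 4 and 0 in 1. Both were 0 with no filter on low genes. They were 3 without Drs when the rm7 bacteria array or the treatment term was left out, 3 without Drsl2 when genes had to be above the floor on all 6 arrays, and against KG03723 3 without Drsl3 with the floor at the 60th percentile. In the fit with no filter on low genes, 1877 of 11982 genes sit at the floor on all 6 arrays. Calls over all genes in that unfiltered fit were 17, against 535 with the filter, for rm7 against revert. They were 1 against 131 for KG03723 against revert, and 34 against 583 for rm7 against KG03723. The KG03723 against revert count of 1 was 0 with the mean over probe sets, no filter, no variance trend, without both rm7 arrays and with no treatment term, and ranged from 0 to 1 when single arrays were left out. The cause was not tested. Of the single-array ratios, 11 passed 2-fold, with 10 to 15 over the other settings (15 with the floor at the 20th percentile), and 7 passed 3-fold. For bacteria against PBS the count was 0 in all 20 alternatives. An alternative without a floor was chosen after seeing the data. No difference changed direction among those called. Signals near the floor limit Drsl1 and Drsl6 and the size of the Drsl2 difference.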
